A study of Branchiostoma lanceolatum with 24 samples.

Results

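Embryos of the European amphioxus Branchiostoma lanceolatum kept in an inhibitor of FGF receptors went through most of the transcript changes that control embryos made between 8 and 14 hours post fertilisation (hpf). Measured along the path of control embryos, their 2 libraries of 11 hpf stood behind the 2 control libraries, too few for a test to decide. Of the 31531 contigs that changed in controls, 69.7% changed in the same direction in inhibited embryos, 3.47% lost their change by a test of the difference, 1.75% changed in the opposite direction, and 25% could not be decided. The number of lost changes moved by more than 1.5 times, up or down, with the libraries fitted. The comparison rests on 4 of the 24 libraries of the series, SU5402 embryos at 8 hpf and at 14 hpf with 2 libraries each, chosen by their labels. The 2 SU5402 libraries at 11 hpf lie between these ends, and the 6 DMSO libraries of the same 3 stages are the controls.

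RNA was sequenced from mixes of whole embryos. The SU5402 group received 50 µM SU5402 and the control group 0.1% DMSO, both from 5 hpf on, so that 8, 11 and 14 hpf correspond to 3, 6 and 9 h of exposure. Stage and length of exposure thus rise together. A change with development and a change with longer exposure to SU5402 cannot be told apart within the SU5402 group. The labels do not say whether the SU5402 dishes held DMSO too, how many embryos went into a mix, or whether both libraries of a group stem from different spawnings or cultures. P-values are therefore about the spread of these libraries alone, and that spread may be technical. Part of it went with the replicate number across groups, and the main fit does not take this out. A fall in a whole-embryo mix can come from fewer cells of a type or from less RNA per cell, and these cannot be told apart here.

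Amphioxus is a cephalochordate, an invertebrate chordate with a notochord, a dorsal nerve cord and somites. Fibroblast growth factors bind receptor tyrosine kinases at the cell surface and signal inside the cell largely through Ras and MAP kinase. In chordate embryos the pathway is known for its part in gastrulation and in forming mesoderm. SU5402 blocks the kinase of FGF receptors by occupying its ATP site, and at high doses it can act on related kinases.

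Reads were counted on transcriptome contigs, assembled pieces of transcript, so that several contigs can stem from 1 gene. The deposited table pairs no contig with a gene name, and 0 of its identifiers were found in the RefSeq gene table of the species. Genes of the FGF pathway, markers of embryonic tissues and sequences could thus not be read here, and contigs are described by how they behaved. Reads of near-identical copies may be split among contigs, and overlapping genes of opposite strands cannot be told apart in these unstranded libraries. The 8 early libraries at 8 and 14 hpf held 29704193 to 39988564 reads, and the 4 at 11 hpf 14885597 to 18924324. Per the labels, the 11 hpf libraries also had 15 PCR cycles against 12 for the others, in both treatments alike. Levels are given as CPM, the reads of a contig scaled to a common library size with trimmed means (TMM). A contig is said to have risen or fallen where edgeR's quasi-likelihood test over 77193 contigs, fitted to the 12 early libraries, gave an adjusted p under 0.05.

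In SU5402 embryos 32963 contigs changed in level between 8 and 14 hpf, 42.7% of those tested. Of these 17920 rose (23.2%) and 15043 fell (19.5%), with median log2 changes of 1.80 and -1.78. Changes of at least 2-fold were made by 15017 risen and 12745 fallen contigs, and of at least 4-fold by 7659 and 6261. In DMSO embryos 31531 contigs changed over the same hours (40.8%), 15879 upward (20.6%) and 15652 downward (20.3%), with medians of 1.84 and -1.85. By number and by size the transcriptome of inhibited embryos thus moved about as far as that of controls. Expressed as a distance over all contigs, the SU5402 change had 97.0% of the length of the DMSO change.

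The contigs that rose with the smallest p under SU5402 were ContigAmph1019 and ContigAmph23524. ContigAmph1019 stood at 34.0 and 31.0 CPM in the 2 SU5402 libraries at 8 hpf, at 334 and 355 CPM at 11 hpf, and at 797 and 813 CPM at 14 hpf. In DMSO libraries it stood at 56.9 and 58.0, then 749 and 815, then 1297 and 1483 CPM. Both treatments rose steeply before 11 hpf, and SU5402 libraries were below DMSO libraries at every stage with no overlap. Its log2 change was 4.63 (SE 0.11, adjusted p = 1.56e-08) under SU5402 and 4.60 (SE 0.11, adjusted p = 1.32e-08) in DMSO, in edgeR's quasi-likelihood test. The difference of 0.03 (SE 0.13, adjusted p = 0.946) was smaller than its error. ContigAmph23524 ran almost in step, from 26.8 and 26.6 CPM at 8 hpf to 620 and 640 CPM at 14 hpf under SU5402 and from 44.6 and 46.0 to 987 and 1132 CPM in DMSO. Its log2 changes were 4.56 and 4.55. Both contigs started lower and ended lower with the inhibitor, and their log2 changes differed from those in controls by 0.03 and 0.01.

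Among falling contigs, ContigAmph16502 and ContigAmph25593 had the smallest p. ContigAmph16502 went from 178 and 201 CPM at 8 hpf to 18.9 and 22.8 at 11 hpf and 8.01 and 7.67 at 14 hpf under SU5402. DMSO libraries held 260 and 266, then 15.3 and 14.6, then 7.81 and 8.43 CPM. The groups overlapped at 14 hpf, after a fall of -4.60 on the log2 scale under SU5402 (SE 0.14, adjusted p = 3.02e-08) and -5.01 in DMSO (SE 0.14, adjusted p = 1.32e-08). ContigAmph25593 went from 809 and 823 CPM to 67.3 and 65.1 CPM under SU5402, a log2 change of -3.62, and from 669 and 798 to 49.4 and 49.3 CPM in DMSO, a log2 change of -3.89. Most of its fall in both treatments was complete at 11 hpf, at 87.2 and 84.0 CPM under SU5402 and 89.4 and 82.2 CPM in DMSO. All 4 of these contigs belong to the changes kept under the inhibitor.

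**Figure D1:**
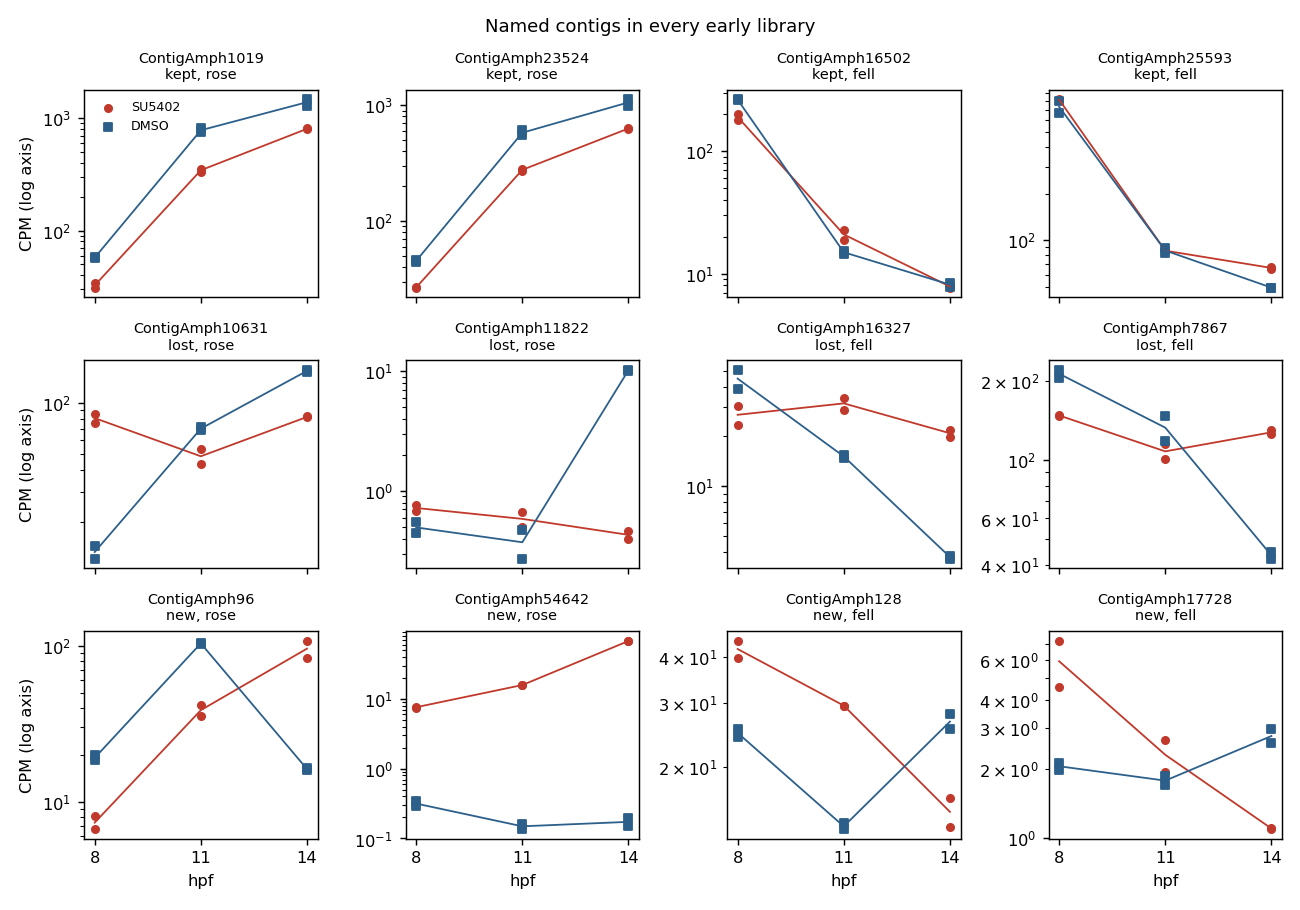
CPM of the named contigs in every early library on a log axis, against stage in hpf, with red circles for SU5402, blue squares for DMSO and lines through the mean of 2 libraries. In the top row both treatments move in the same direction, in the middle row the blue line moves and the red line ends near where it began, and in the bottom row the red line moves and the blue line ends near where it began.

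To say which changes were kept, lost or new, each contig was given a class from 3 contrasts of the same fit, the change in SU5402 embryos, the change in DMSO embryos and the difference between these changes. The SU5402 and DMSO changes share no library. A change was kept where both passed the threshold in the same direction. It was lost where it passed in DMSO and not in SU5402 embryos, new where it passed in SU5402 and not in DMSO embryos, and in both cases the difference had to pass too. The difference passed at 4175 contigs, 5.41% of those tested, and was above 0 at 2900 (3.76%) and below 0 at 1275 (1.65%). That split depended on scaling. With TMM factors from contigs of at least 10 CPM, 1884 were above and 2119 below 0, and the median difference over all contigs moved from 0.11 to -0.11 on the log2 scale. Leaving out 1 of the 8 libraries at 8 and 14 hpf lowered the number to between 1709 (without SU5402 at 14 hpf replicate 2) and 2627 (without DMSO at 8 hpf replicate 2). A fit of all 24 libraries raised it to 10331. The difference between replicates 1 and 2 was in part shared across the early groups, with the sign reversed for SU5402 at 14 hpf. A fit with a replicate block, its numbers crossed for that group after seeing the data, gave 13768 with a difference, 3341 lost and 3371 new.

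Kept changes numbered 21991, of which 11699 rose and 10292 fell. They made up 66.7% of the contigs that changed under SU5402 and 69.7% of those that changed in DMSO. Among kept rises the median log2 change was 1.97 under SU5402 and 1.95 in DMSO, and among kept falls it was -1.89 and -2.07. The ratio of the SU5402 to the DMSO change had a median of 96.8% with quartiles of 74.8% and 124%. For 1486 kept contigs the difference itself passed, with the larger change under SU5402 at 601 and in DMSO at 885. The kept falls that differed were mostly smaller under SU5402, 586 against 114, while the kept rises that differed were larger at 487 and smaller at 299. This moved with scaling. With TMM factors from abundant contigs, kept falls were smaller at 468 and larger at 282, and kept rises were smaller at 422 and larger at 283.

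Kept rises ran below controls more often than contigs in general. Of the kept rises, 21% were below DMSO at 8 hpf by the SU5402 against DMSO contrast and 3.5% above, where 8.72% of all contigs tested were below and 8.34% above. At 14 hpf 18.5% were below and 4.11% above, against 7.24% and 13.1% of all contigs. The median offset of the kept rises was -0.39 at 8 hpf and -0.34 at 14 hpf on the log2 scale. Kept falls were near the shares of all contigs. They were higher under SU5402 at 7.35% and lower at 7.15% at 8 hpf, and higher at 15.2% and lower at 5.13% at 14 hpf. These offsets use the same libraries as the classes and are given as a description.

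**Figure D2:**
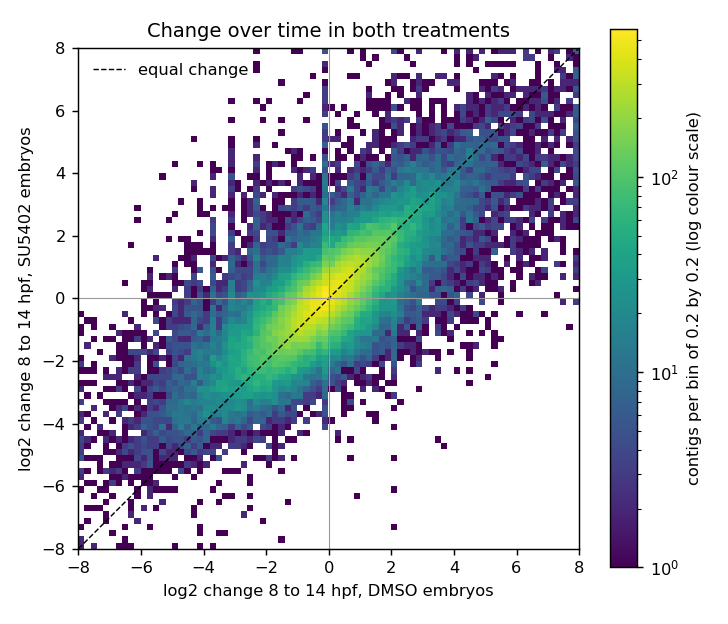
Density of the 77193 tested contigs by log2 change from 8 to 14 hpf in DMSO embryos (horizontal) and SU5402 embryos (vertical), with the colour giving contigs per bin on a log scale, the dashed line marking equal change and values beyond 8 placed at the edge. Most contigs lie along the line, with a Pearson correlation of 0.79 across contigs.

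Across all contigs the changes in the 2 treatments had a Pearson correlation of 0.79 and a Spearman correlation of 0.75, and 77.1% had the same sign. Contigs are not independent replicates, and the correlation was lower among rare contigs, at 0.68 below 1 CPM against 0.93 above 100 CPM. A line drawn from the mean of the DMSO libraries at 8 hpf (0%) to their mean at 14 hpf (100%) gives each library a position on the control path in log2 CPM. SU5402 libraries stood at -4.44% and -1.31% at 8 hpf, 28.6% and 31.8% at 11 hpf, and 72.4% and 75.1% at 14 hpf. DMSO libraries at 11 hpf stood at 57.3% and 59.7%. SU5402 libraries thus stood behind DMSO libraries on this line at 11 hpf, with no overlap. The DMSO libraries of 8 and 14 hpf set the line and sit at its ends by construction, so the test is at 11 hpf, where an exact two-sided permutation test gave p = 0.333, the smallest it can give for 2 libraries against 2.

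Along this line SU5402 embryos moved by 76.6 points from 8 to 14 hpf, 33.1 of them before 11 hpf and 43.5 after. These 76.6 points cannot be read against 100, since a control library that does not set the line also falls short of its end, as the next values show. To give the control value, the line was drawn from 1 DMSO library at each end in the 4 possible ways, a choice made after seeing the data. The DMSO library of 14 hpf held out then stood at 85.2% to 95.7%, and the SU5402 libraries of 14 hpf at 64.9% to 77.7%, below it on each line. The change between held-out DMSO libraries measured 67.7 to 90.1 points and that of SU5402 embryos 63.2 to 72.9. Over all contigs these ranges overlapped across lines, but on each single line the SU5402 change was the smaller. It measured 71.6 against 87.2, 63.2 against 67.7, 66.7 against 71.2 and 72.9 against 90.1 points. The 4 lines share libraries, and the difference was not tested. For contigs of at least 10 CPM the held-out DMSO change measured 89.5 to 100.7 points and the SU5402 change 82.2 to 87.9. Among the 11221 contigs of at least 10 CPM, the SU5402 libraries stood at 39.1% and 40.0% at 11 hpf and at 81.8% and 85.4% at 14 hpf, and the DMSO libraries at 11 hpf at 62.7% and 62.9%. Over the contigs of at least 10 CPM, the SU5402 libraries of 14 hpf lay at a root mean square log2 difference of 0.756 and 0.740 from the DMSO mean of 14 hpf and 0.807 and 0.834 from that of 11 hpf. The 2 SU5402 libraries of 14 hpf were 0.393 apart. The DMSO libraries of 11 hpf differed by 0.4997 and those of 14 hpf by 0.425, and a wider spread adds to a distance, so the order of these distances was not tested. SU5402 libraries also lay off the control line, by 70.6% and 66.6% of its length at 8 hpf and 76.2% and 72.4% at 14 hpf, where DMSO libraries of 11 hpf, which do not set the line, lay off by 55.3% and 52.7%. SU5402 libraries of 11 hpf lay off by 87.6% and 81.1%, so a lower position on the line need not mean an earlier stage. Their root mean square log2 difference over all contigs was 1.368 and 1.292 from the DMSO mean of 8 hpf and 1.366 and 1.262 from that of 11 hpf. For contigs of at least 10 CPM it was 1.050 and 1.013 from 8 hpf and 0.829 and 0.771 from 11 hpf.

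**Figure D3:**
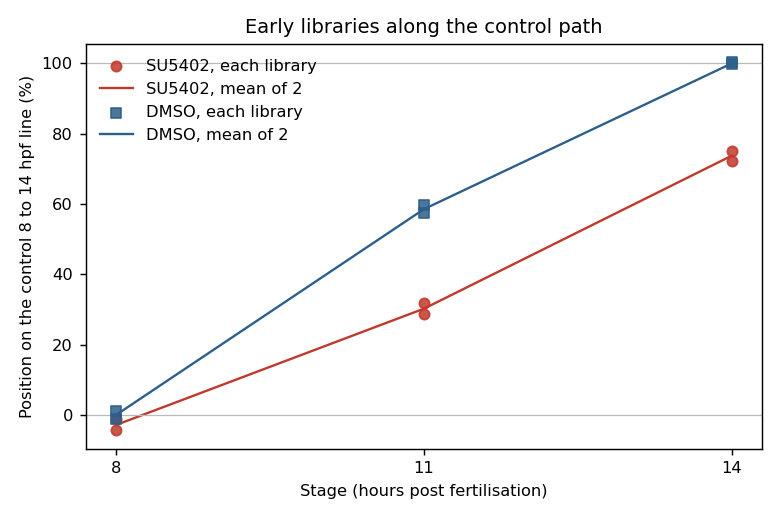
Position of each early library on the line from the DMSO mean at 8 hpf (0%) to the DMSO mean at 14 hpf (100%), over all tested contigs in log2 CPM, against stage. SU5402 libraries (red circles) reach 28.6% and 31.8% at 11 hpf and 72.4% and 75.1% at 14 hpf, and DMSO libraries (blue squares) 57.3% and 59.7% at 11 hpf, while DMSO libraries of 8 and 14 hpf set the line and sit near 0 and 100% by construction. Lines join means of 2.

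Contigs whose change was kept, which are part of those behind these positions, were also less far along at 11 hpf. At 11 hpf the kept rises had made a median of 51.4% of their log2 change under SU5402 and 65.8% in DMSO, and the kept falls 48.2% and 66.3%. Over all contigs that rose in each treatment, which are not the same contigs, the medians were alike, at 58.4% under SU5402 and 58.6% in DMSO. Over all that fell they were 49.2% and 59.5%. The kept rises went up by medians of 1.02 before and 0.94 after 11 hpf under SU5402, and by 1.26 and 0.63 in DMSO. The kept falls went by -0.89 and -0.99 under SU5402 and by -1.33 and -0.73 in DMSO. The test of the difference for each step, added after the values were seen, passed at few contigs. The first step was smaller under SU5402 at 278 kept rises and larger at 25, and the second step was larger at 368 and smaller at 30. Of the kept falls, 170 had a smaller and 0 a larger first step, while the second step was larger at 121 and smaller at 94. Over all contigs the difference passed at 0.926% for the first step, 0.482% above and 0.444% below 0, and at 1.4% for the second, 0.969% above and 0.426% below 0.

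Tested stage by stage, 10613 contigs rose (13.7%) and 6850 fell (8.87%) from 8 to 11 hpf under SU5402, 22.6% of all contigs. From 11 to 14 hpf 7563 rose (9.8%) and 6277 fell (8.13%), together 17.9%. In DMSO 24.1% of contigs passed in the first step (12.3% up, 11.8% down) and 16.3% in the second (8.98% up, 7.33% down). Of the 17920 contigs that rose over the whole span, 34% passed in the first step alone, 19.9% in the second alone, 15.3% in both and 29.5% in neither. Of the 15043 that fell, these shares were 25.1%, 21%, 11.7% and 41%. In DMSO 35.5% of the rises passed in the first step alone and 20.1% in the second alone, close to the shares under SU5402. Of the DMSO falls, 33.5% passed in the first step alone and 16.2% in the second alone. Passing in 1 step alone does not show that the steps differ. Peaks at 11 hpf, a rise followed by a fall, were found at 656 of the 77193 contigs under SU5402 and 843 in DMSO. Both treatments peaked at 172 contigs, 26.2% of the SU5402 and 20.4% of the DMSO peaks. The share of 172 in 656 is larger than that of 843 in 77193. Troughs, a fall followed by a rise, were found at 737 contigs under SU5402, 986 in DMSO and 221 in both. The overlaps were not tested. The lower depth and the extra PCR cycles of the 11 hpf libraries go with stage in both treatments, and their part in these counts was not tested.

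**Figure D4:**
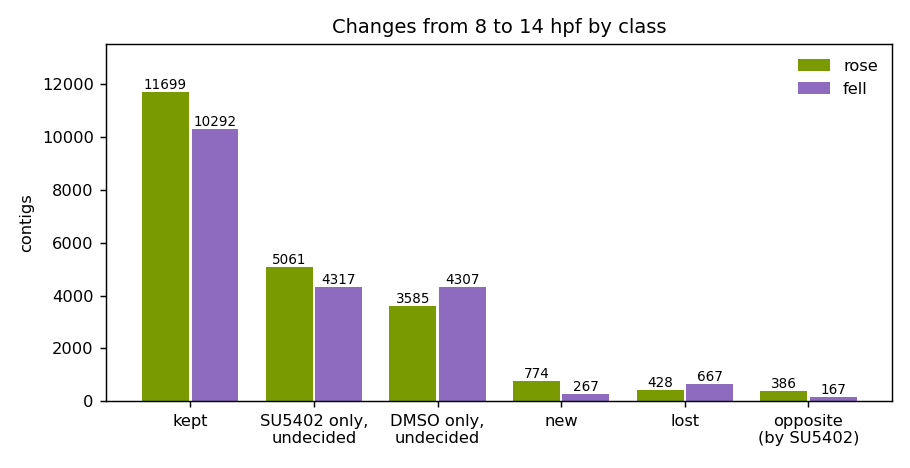
Number of contigs in each class of change from 8 to 14 hpf, by direction, with opposite changes placed by their direction under SU5402. Kept changes (11699 rises and 10292 falls) outnumber new (774 and 267), lost (428 and 667) and opposite ones (386 and 167), and undecided changes lie between.

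Lost changes numbered 1095, with 428 rises and 667 falls of control embryos, 2.7% of the DMSO rises and 4.26% of the DMSO falls. The lost rises went up by a median log2 change of 2.06 in DMSO and -0.08 under SU5402, and the lost falls by -1.49 and 0.04. Which direction was lost more often depended on processing. With TMM factors from abundant contigs 667 rises and 427 falls were lost, and with a filter of at least 1 CPM in 2 libraries 596 and 587. Without 1 library the total lost was 434 (DMSO at 14 hpf replicate 1 left out) to 702 (SU5402 at 8 hpf replicate 1 left out), and a fit of all 24 libraries gave 2718. In controls most of these changes came after 11 hpf. The median DMSO log2 change of the lost rises was 0.42 from 8 to 11 hpf and 1.58 from 11 to 14 hpf, and that of the lost falls was -0.53 and -1.05.

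A lost change had more than one shape. Set against the midpoint between the DMSO levels of 8 and 14 hpf, 45.1% of the lost rises stayed below it under SU5402 at both times, the rise failing to appear. Another 36.2% were above it at both times, the contig being already high at 8 hpf under the inhibitor. Of the lost falls, 52.8% stayed above the midpoint at both times and 32.7% were below it at both times. At 8 hpf 47.9% of the lost rises were higher than in DMSO by the SU5402 against DMSO contrast, and at 14 hpf 61% were lower. Of the lost falls, 46.2% were lower at 8 hpf and 65.4% higher at 14 hpf. Over all contigs 8.34% were higher and 8.72% lower at 8 hpf, and 13.1% higher and 7.24% lower at 14 hpf. A lost change was chosen by the gap between these offsets, so their direction follows in part from the choice. The median level of the lost rises was 2.25 ± 0.0691, 1.68 ± 0.109 and 2.19 ± 0.0852 CPM at 8, 11 and 14 hpf under SU5402 (SD, n = 2). In DMSO it was 0.891 ± 0.0084, 1.21 ± 0.0108 and 4.48 ± 0.044 CPM. The lost falls stood at 9.05 ± 0.464, 10.5 ± 0.533 and 9.29 ± 0.0503 CPM under SU5402 and at 13.2 ± 0.568, 10.4 ± 0.0716 and 4.83 ± 0.0899 CPM in DMSO.

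Of the named lost rises, ContigAmph11822 is one that did not appear by 14 hpf under SU5402. Its SU5402 libraries held 0.763 and 0.679 CPM at 8 hpf, 0.502 and 0.667 at 11 hpf and 0.461 and 0.399 at 14 hpf, the last from 17 and 13 reads. DMSO libraries held 0.443 and 0.549, then 0.473 and 0.273, then 10.1 and 10.2 CPM. The contig was near silent in every early library except DMSO at 14 hpf, and the log2 difference of the changes was -5.09 (SE 0.42, adjusted p = 0.000345, edgeR). On a scale set over all 24 libraries it stood at 86.2, 121 and 183 CPM in the DMSO embryos of 18.5, 21.5 and 24.5 hpf. Embryos of these stages given SU5402 from 15.5 hpf on held 60.1, 88.1 and 158 CPM.

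ContigAmph10631 had the other shape. SU5402 libraries held 86.1 and 76.2 CPM at 8 hpf, 53.1 and 43.8 at 11 hpf and 81.9 and 83.0 at 14 hpf. DMSO libraries climbed from 12.2 and 14.4 to 69.2 and 71.6 and then to 151 and 156 CPM. The contig was several-fold higher with the inhibitor at 8 hpf and lower at 11 and 14 hpf, with no overlap at any stage. The log2 change was 0.02 (SE 0.13, adjusted p = 0.905) under SU5402 and 3.53 (SE 0.14, adjusted p = 6.61e-08) in DMSO, and the difference -3.50 (SE 0.18, adjusted p = 5.37e-05).

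The named lost falls stayed up under SU5402. ContigAmph16327 held 30.4 and 23.5, then 34.3 and 29.0, then 21.9 and 19.8 CPM in SU5402 libraries, and 50.5 and 38.9, then 15.3 and 14.9, then 3.64 and 3.79 CPM in DMSO libraries. The log2 change was -0.37 (SE 0.17, adjusted p = 0.108) under SU5402 and -3.59 (SE 0.19, adjusted p = 3.34e-07) in DMSO, a difference of 3.22 (SE 0.25, adjusted p = 0.000345). ContigAmph7867 held 147 and 149, then 101 and 115, then 126 and 130 CPM under SU5402. In DMSO it went from 206 and 221 to 119 and 147 and then to 42.2 and 44.6 CPM. It began lower with the inhibitor and ended higher, the difference of the log2 changes being 2.09 (SE 0.17, adjusted p = 0.000345). In the later DMSO embryos ContigAmph7867 stood at 30.1, 30.1 and 25.6 CPM and ContigAmph16327 at 0.744, 0.450 and 0.794 CPM at 18.5, 21.5 and 24.5 hpf, on the scale of all 24 libraries.

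New changes numbered 1041, with 774 rises and 267 falls, 4.32% of the SU5402 rises and 1.77% of the SU5402 falls. The new rises had a median log2 change of 1.57 under SU5402 and -0.09 in DMSO, and the new falls -1.54 and 0.27. With TMM factors from abundant contigs 474 rises and 465 falls were new, so the excess of rises depended on scaling. Without 1 library the total new was 337 (SU5402 at 14 hpf replicate 2 left out) to 702 (DMSO at 8 hpf replicate 2 left out), and a fit of all 24 libraries gave 2710. Of the new rises, 55.3% were below DMSO at 8 hpf and 52.2% above it at 14 hpf, against 8.72% and 13.1% of all contigs, and this too follows in part from how they were chosen. At 412 of the 774, the SU5402 level was as far or farther from the DMSO mean of both times at 8 hpf than at 14 hpf, so that the rise brought them closer to control levels. At the other 362 the rise took them away. Of the 267 new falls, 171 ended farther from that mean than they began.

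Contigs with a new rise were not flat in controls at the stage between. Their median level in DMSO was 6.02 ± 0.177 CPM at 8 hpf, 7.94 ± 0.238 at 11 hpf and 5.79 ± 0.166 at 14 hpf (SD, n = 2). Under SU5402 it climbed from 3.62 ± 0.148 to 8.76 ± 0.34 and 11.8 ± 0.298 CPM. The new falls mirrored this, with a DMSO dip from 3.50 ± 0.0799 to 1.83 ± 0.109 and back to 3.70 ± 0.131 CPM. Under SU5402 they went from 6.02 ± 0.503 to 2.66 ± 0.0075 and 1.77 ± 0.0301 CPM. In both sets the medians of controls and SU5402 embryos moved in the same direction up to 11 hpf, but by unlike amounts. The new rises went by median log2 changes of 1.33 under SU5402 and 0.27 in DMSO before 11 hpf, and by 0.35 and -0.38 after it. The new falls went by -1.17 and -0.70 before and by -0.46 and 0.91 after. The difference passed at 64 new rises (8.27%) for the first step and at 67 (8.66%) for the second. Over all contigs 0.482% and 0.969% passed above 0. Of the new falls, 5 (1.87%) passed for the first step and 46 (17.2%) for the second, where 0.444% and 0.426% of all contigs passed below 0. New changes were chosen by the difference over both steps, so these shares and their direction follow in part from the choice. The 11 hpf libraries were not used to sort contigs into classes beyond the shared scaling and estimate of spread.

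**Figure D5:**
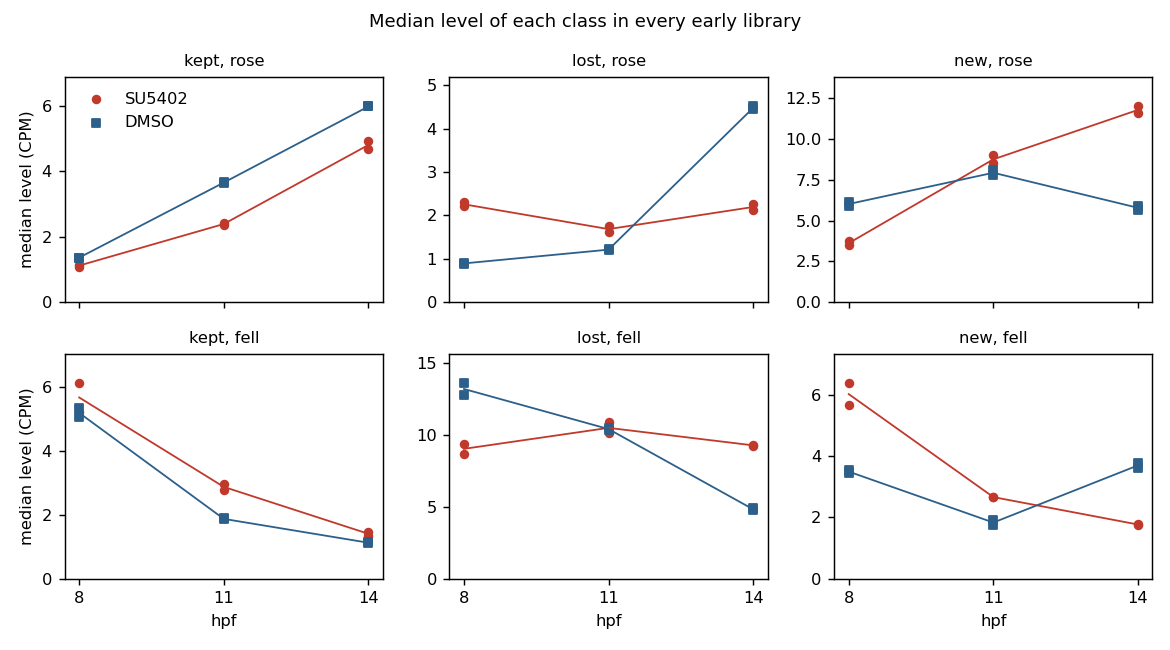
Median CPM of the kept, lost and new contigs in every early library, rises above and falls below, against stage in hpf, with SU5402 in red, DMSO in blue and lines through means of 2. Lost changes appear in the blue line mostly after 11 hpf (4.48 CPM for lost rises at 14 hpf), and the new rises show a blue peak of 7.94 CPM at 11 hpf where the red line goes on to 11.8 CPM.

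ContigAmph96 had such a course with a control peak, though its log2 changes before 11 hpf were nearly equal, at 2.39 under SU5402 and 2.44 in DMSO. SU5402 libraries rose from 6.65 and 8.04 CPM at 8 hpf to 35.3 and 41.9 at 11 hpf and 83.7 and 107 at 14 hpf. DMSO libraries rose from 19.8 and 18.4 to 103 and 104 CPM and were back at 16.5 and 15.9 at 14 hpf. The level of SU5402 embryos at 14 hpf overlapped that of controls at 11 hpf. The log2 change was 3.70 (SE 0.17, adjusted p = 1.46e-07) under SU5402 and -0.24 (SE 0.15, adjusted p = 0.242) in DMSO, a difference of 3.94 (SE 0.22, adjusted p = 7.94e-05).

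ContigAmph54642 rose without any such course in controls. SU5402 libraries held 7.44 and 7.80 CPM at 8 hpf, 15.8 and 15.9 at 11 hpf and 67.2 and 68.5 at 14 hpf. DMSO libraries held 2 to 10 reads each, at 0.135 to 0.340 CPM. The contig was above the DMSO level in every SU5402 library and grew at each step, by 1.06 (adjusted p = 0.000401) and 2.10 (adjusted p = 1.66e-05) on the log2 scale. The difference of the changes was 4.02 (SE 0.30, adjusted p = 0.000285, edgeR). On the scale of all 24 libraries, later DMSO embryos held 0.127, 0.0256 and 0.243 CPM at 18.5, 21.5 and 24.5 hpf. Embryos of these stages given SU5402 from 15.5 hpf on held 63.6, 42.4 and 51.0 CPM. A higher level with SU5402 was thus not confined to 8 to 14 hpf, and these later levels were not tested.

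The named new falls began above controls and ended below them. ContigAmph128 went from 44.3 and 39.8 CPM to 29.4 and 29.4 and then to 16.5 and 13.7 CPM under SU5402. In DMSO it held 24.2 and 25.4, then 13.5 and 14.0, then 25.4 and 27.8 CPM, a dip and a return. The difference of the log2 changes was -1.58 (SE 0.19, adjusted p = 0.00161). ContigAmph17728, a rarer contig, went from 7.25 and 4.55 CPM through 2.66 and 1.94 to 1.09 and 1.10 CPM under SU5402. It held 1.97 and 2.12, then 1.69 and 1.86, then 2.97 and 2.58 CPM in DMSO, the difference being -2.87 (SE 0.40, adjusted p = 0.00335). Its 2 SU5402 libraries lay far apart at 8 hpf and close together at 14 hpf.

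Opposite changes, past the threshold in both treatments with unlike sign, were found at 553 contigs. Of these 386 rose under SU5402 and fell in DMSO, with medians of 0.81 and -0.96 on the log2 scale, and 167 fell under SU5402 and rose in DMSO, with medians of -1.15 and 1.23. The undecided contigs, past the threshold in 1 treatment with a difference that did not pass, were 7892 for DMSO and 9378 for SU5402. In these 84.5% and 80.6% moved in the same direction in the other treatment. The undecided DMSO rises had a median log2 change of 1.60 in DMSO and 0.54 under SU5402, so a reduced rise was common among them, and the undecided SU5402 rises 1.52 under SU5402 and 0.43 in DMSO. Choosing contigs for passing in 1 treatment by itself favours a larger value there.

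The classes differed in abundance. Among contigs with a mean under 1 CPM, 14.7% were kept, 0.564% lost and 0.477% new, and 23.4% undecided. At 1 to 10 CPM 34.7% were kept and 23.1% undecided, and at 10 to 100 CPM 53.8% and 18%. Among the 1564 contigs over 100 CPM, 65.9% were kept, 5.05% lost, 4.41% new and 11.7% undecided. The difference was above 0 at 22.3% of these abundant contigs and below 0 at 3.32%. The split over all contigs moved with TMM factors from contigs of at least 10 CPM, and the split at this level was not computed with them.

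The kept contigs can also be seen as shares of the reads. They were chosen for rising or falling in both treatments in these libraries, so the direction of their shares over time follows from the choice. The kept falls took 60.4% ± 0.553 of the reads of SU5402 libraries at 8 hpf, 44.1% ± 1.37 at 11 hpf and 28.4% ± 0.794 at 14 hpf (SD, n = 2), and 54.5% ± 0.0479, 34.7% ± 0.296 and 23.4% ± 0.473 in DMSO. The kept rises grew from 9.68% ± 0.182 through 19.7% ± 0.272 to 35.5% ± 1.14 under SU5402 and from 12.7% ± 0.0598 through 29.1% ± 0.0591 to 41.9% ± 0.606 in DMSO. At each stage SU5402 libraries held more reads in falling and fewer in rising contigs than DMSO libraries, with no overlap. The new and lost contigs together were small, with 3.44% ± 0.128 of reads in the new rises and 2.87% ± 0.0276 in the lost falls at 14 hpf under SU5402. The most abundant contig was ContigAmph3515, which was picked out by its own level. It took 10.4% and 11.4% of reads at 8 hpf, 13.6% and 11.9% at 11 hpf and 7.53% and 6.95% at 14 hpf under SU5402. In DMSO it took 7.62% and 8.398%, then 8.00% and 7.95%, then 4.71% and 4.90%.

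Fewer contigs met set limits for a switch from near silence to a clear level under SU5402. With at most 3 reads in each library at 8 hpf and at least 5 CPM in each at 14 hpf, 56 contigs switched on in DMSO and 18 under SU5402, and 6 did so in both. All 56 control contigs rose under SU5402 too and were classed as kept, with a median level of 4.42 CPM at 14 hpf against 8.35 CPM in DMSO, and 91.1% of them were higher in DMSO. Among the 56, 20 were also at 3 reads or fewer in both SU5402 libraries at 8 hpf, and 19 reached 5 CPM in both at 14 hpf. These contigs were chosen by their DMSO levels, which favours a higher DMSO value. Switching off by the reverse limits was seen at 20 contigs in DMSO and 5 under SU5402, 2 of them in both. The limit of 3 reads was not scaled for depth. At 8 hpf the SU5402 libraries held 39988564 and 29704193 reads, and 90496 and 90065 contigs had a read. The DMSO libraries held 33919562 and 29923338 reads, and 86238 and 86448 contigs had a read, so fewer contigs could count as near silent under SU5402. These counts were not tested.

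The later DMSO embryos of the series show where these sets of contigs went in normal development, on a scale set over all 24 libraries. The lost rises had a median of 4.79 CPM in DMSO at 14 hpf and of 8.90, 8.03 and 9.07 CPM at 18.5, 21.5 and 24.5 hpf. The lost falls went from 5.18 CPM at 14 hpf to 3.83, 3.51 and 3.84 CPM. Both sets thus stayed on the side to which controls had moved. The new rises, at 6.20 CPM in DMSO at 14 hpf, stood at 4.63, 4.07 and 4.28 CPM later, and the new falls, at 3.99 CPM, at 7.24, 7.35 and 8.09 CPM. Later controls thus moved away from the direction taken under SU5402. The later DMSO embryos were placed in DMSO at 15.5 hpf and form a separate series, and these levels were not tested.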

How the data were processed

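The deposited table holds raw read counts per contig, whole numbers per library, as the authors made them. Per the submitters' processing notes, BWA 0.6.1 was used. No source used here gives the assembly, the counting rule or any filter. Analysis used edgeR 4.0.16 in R 4.3.3 (filterByExpr, TMM factors, quasi-likelihood fit with 1 coefficient for each of 6 groups, 6 residual degrees of freedom, Benjamini-Hochberg adjustment over 77193 contigs). The filter left out 18901 contigs and kept at least 99.79% of each library's reads. The 12 early libraries were fitted alone because the biological coefficient of variation was 23.7% to 30.4% within early pairs of libraries and 3.41% to 7.63% within late pairs. Chi-square per degree of freedom between the counts of replicates was 7.62 to 18.9 in early and 1.35 to 6.38 in late pairs, where sampling noise gives 1. The SE is the absolute log2 change divided by the square root of F. Positions used log2 CPM with a prior count of 2. Named contigs are the 2 risen and 2 fallen with the smallest p in the SU5402 change and, at 5 CPM or more in a group, in the kept, lost and new classes, kept ranked by the larger p of both changes. The kept contigs so named were those of the SU5402 change. Comparisons and rules were chosen with earlier results of these data known. The script was tested on simulated data. DESeq2 1.42.0, limma 3.58.1, other scalings, filters and fits were tried as alternatives.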

Additional observations from a re-analysis of the deposited data

Results flagged for a closer look

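The change from 8 to 14 hpf differed between SU5402 and DMSO embryos at 4175 contigs by the test of the difference, and the 8 named lost and new contigs are among them. The log2 difference, SU5402 minus DMSO, was -3.50 for ContigAmph10631, -5.09 for ContigAmph11822, 3.22 for ContigAmph16327 and 2.09 for ContigAmph7867, whose control change was lost. It was 3.94 for ContigAmph96, 4.02 for ContigAmph54642, -1.58 for ContigAmph128 and -2.87 for ContigAmph17728, whose change was new. Groups of 2 libraries are too small for a test of outlying libraries.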

How the results depend on the processing

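All 12 named contigs kept their direction and side of the threshold in each of 19 alternatives, with a highest adjusted p of 0.0204, for ContigAmph17728. The named contigs were picked for small p in these same libraries, which favours such stability. Counts of lost and new changes, and of contigs whose difference passed, were the least stable. Leaving out 1 library gave 24086 to 32822 contigs changed in SU5402 embryos, 23531 to 31223 in DMSO embryos, 1709 to 2627 with a difference, 17616 to 19033 kept, 434 to 702 lost and 337 to 702 new. It gave 10581 to 16448 changed from 8 to 11 hpf and 6071 to 13507 from 11 to 14 hpf in SU5402 embryos, and a share of the control path made by SU5402 embryos of 69.9% to 77.5%. Each of the 8 omissions lowered the number with a difference and the number lost by more than 1.5 times, with fewer libraries in each test. The lowest values came without DMSO early 9 h replicate 1 for lost and without SU5402 early 9 h replicate 2 for new changes. The steps fell to 10581 and 11547 without SU5402 early 3 h replicate 1 and 2, and to 8337 and 6071 without SU5402 early 9 h replicate 1 and 2. One fit of all 24 libraries gave 10331 contigs with a difference, 21001 changed from 11 to 14 hpf, 2718 lost and 2710 new. Its common biological coefficient of variation was 18.3%, below that of every early pair. With no test of the difference, 8987 changes would count as lost and 10419 as new. The share was 79.98% with the stricter filter (at least 1 CPM in 2 libraries), 87.1% for contigs of at least 10 CPM, 72.2% with a prior count of 0.5, and 68.6% on average with the line drawn from 1 DMSO library at each end, added after seeing the data, and the cause was not tested.

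With the replicate block, 34789 contigs changed in SU5402 and 33421 in DMSO embryos, 5323 differed, 23387 were kept, 1405 lost and 1301 new. The numbers do not pair the samples by the labels. Among 5 early groups the difference between replicates 1 and 2 correlated at 0.443 to 0.625 across contigs, while that of SU5402 early 9 h correlated at -0.553 to -0.497 with them. With its numbers crossed, a choice made after seeing the data, 13768 contigs differed, 3341 were lost and 3371 new. From 8 to 11 hpf 29879 changed in SU5402 embryos, and from 11 to 14 hpf 27267. The common biological coefficient of variation was then 10.9%, against 27.2% in the main fit.

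Scaling and filters moved splits more than totals. Library totals gave 13982 risen and 5242 fallen from 8 to 11 hpf, all 24 libraries 11871 and 12508 there, and no filter 9571 and 3981 from 11 to 14 hpf. The stricter filter gave 2660 differences above and 1896 below 0, and 679 new rises and 397 new falls. Of contigs under 1 CPM 23.4% stayed undecided, of those of 1 to 10 CPM 23.1%, and of those over 100 CPM 11.7%.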
